A study of Mus musculus with 4 samples.

Results

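The complement genes C3, C4b, Cfb, Serping1, Cd55, Cd59a and Cd46 were examined in endothelial cells (ECs) of the dura mater and of the brain parenchyma. They were taken by symbol, and the 7 genes made up 7 of the 23282 lines of the count tables. The dura mater is the outer membrane between skull and brain. The study sequenced both kinds of ECs to compare their expression programs. All mice were C57BL/6J at 8 weeks of age, with no transgene or treatment named for these samples, and each tissue had 2 libraries of CD31+ CD45- TER-119- cells sorted after enzymatic digestion, with a bead enrichment step for the brain alone. How many mice went into a library is not stated, so p-values measure only the spread between these libraries, which may be technical.

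Complement is a cascade of plasma and tissue proteins that tags surfaces for removal and can pierce membranes. C1q, C1r and C1s start the classical pathway and cleave C4 and C2, while factor B (Cfb) joins activated C3 to form the convertase of the alternative pathway. Host cells hold the cascade in check with C1 inhibitor (Serping1) in the fluid phase and with CD55, CD46 and CD59 on the membrane. In mice, Cr1l (Crry) takes over much of the part that CD46 plays in human cells, and Cd46 itself is largely a testis gene. Endothelium meets complement directly in the blood, and fibroblasts and glia are also known sources of several components.

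Libraries held 13518973 to 16096203 counts. All 12 pan-endothelial markers were counted in each library, and their summed level in CPM was 11793 and 13950 for the brain against 10711 and 13169 for the dura mater. CPM are counts per 1000000 counts of a library, after trimmed-mean scaling of library sizes. Ptprc, the gene of the sorted-out leukocyte antigen CD45, had 1 to 4 counts per library. Many genes were counted in one replicate and not in the other. Of the symbols with at least 64 counts in a brain library, 31.3% had 7 or fewer in the other, and 30.7% did so in the dura mater.

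Coding sequences are shown first for the members that have a close relative in the mouse genome, since reads from identical stretches cannot be assigned to either gene. Sequences are from GENCODE M21 (GRCm38), 5′ to 3′ on the transcript, with introns removed. Cd59a (chr2:104104189-104110768, plus strand) and its neighbour Cd59b (chr2:104078876-104081025, plus strand) differed at 4 of the first 90 coding bases, which are in capitals.
Cd59a: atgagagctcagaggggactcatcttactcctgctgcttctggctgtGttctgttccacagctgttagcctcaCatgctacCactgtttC
Cd59b: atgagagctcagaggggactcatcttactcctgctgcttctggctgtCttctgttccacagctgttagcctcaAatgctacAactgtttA

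Cd55 and Cd55b shared an identical run of 198 coding bases (chr1:130459765-130462572 in Cd55, minus strand), which is given once. The last 90 coding bases of each gene are given after it (chr1:130440315-130448331 for Cd55 and chr1:130388611-130388700 for Cd55b).
Shared by Cd55 and Cd55b: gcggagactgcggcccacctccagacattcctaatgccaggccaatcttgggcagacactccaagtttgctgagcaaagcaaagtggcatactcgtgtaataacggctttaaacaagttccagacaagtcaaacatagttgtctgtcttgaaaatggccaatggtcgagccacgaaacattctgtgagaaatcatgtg
Cd55, end: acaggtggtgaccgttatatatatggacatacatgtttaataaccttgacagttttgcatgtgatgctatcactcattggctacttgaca
Cd55b, end: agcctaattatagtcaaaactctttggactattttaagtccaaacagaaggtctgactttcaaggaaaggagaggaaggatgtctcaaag

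The last 90 coding bases of C4b (chr17:34728489-34728578, minus strand) matched a transcript of C4a with 0 mismatches.
C4b, end: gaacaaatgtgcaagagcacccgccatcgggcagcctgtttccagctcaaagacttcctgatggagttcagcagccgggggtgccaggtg

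The library kit reads 3′ ends, so the last 500 bases of each transcript bear most on the counts. There, 38.1% of all 50-base words of C4b also occurred in C4a, against 0% for Cd55 with Cd55b and 0% for Cd59a with Cd59b. Counts of C4b are therefore uncertain as those of a single gene. Over the whole transcript the shares were 35.2%, 13.3% and 3.98%. For Cd55b with Cd55 they were 9.31% over the last 500 bases and 25.9% over the whole transcript.

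Among the components, C3, C4b and Cfb behaved differently from each other. C3 (chromosome 17, 57203970 to 57228136, minus strand), the central protein of the cascade, was close to absent from the counts, with 0 and 6 in the brain against 7 and 3 in the dura mater. The groups overlapped. The highest value was 0.522 CPM, and the 95% Wilson interval of those 7 counts reached 1.07 CPM of the unscaled total. C4b (chromosome 17, 34728380 to 34743882, minus strand), which is cleaved in the classical and lectin pathways, had 0 and 0 counts in brain ECs against 2 and 354 in dura mater ECs, or 0.149 and 21.7 CPM. Its mean in dura mater ECs was 50.3 times a limit of 3 counts per brain library. That mean rested on dura mater replicate 2 alone, as replicate 1 was under that limit. C4a had 8 counts in the same replicate 2 and 0 counts in the others.

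Cfb (chromosome 17, 34856374 to 34862518, minus strand), the serine protease of the alternative pathway, was counted in all 4 libraries. It had 9 and 21 counts in the brain against 733 and 591 in the dura mater, that is 0.621 and 1.59 CPM against 54.7 and 36.2 CPM. Both dura mater libraries lay well above both brain libraries. The mean was 1.10 ± 0.683 CPM for the brain against 45.4 ± 13.1 CPM for the dura mater (SD, n = 2), a 41.1-fold ratio of means. The log2 fold change was 5.20 (SE 2.45), and it did not pass edgeR's quasi-likelihood test over all genes (adjusted p 0.503). The groups failed to overlap for 43.1% of all genes tested, with the dura mater higher for 26.2%. C2, which lies 85 bases from Cfb on the same strand, had 0 counts in 3 libraries and 1 count in the other. The annotated gene Gm20547 covers 79.5% of the exon length of Cfb on the same strand and had no line of its own here.

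**Figure D1:**
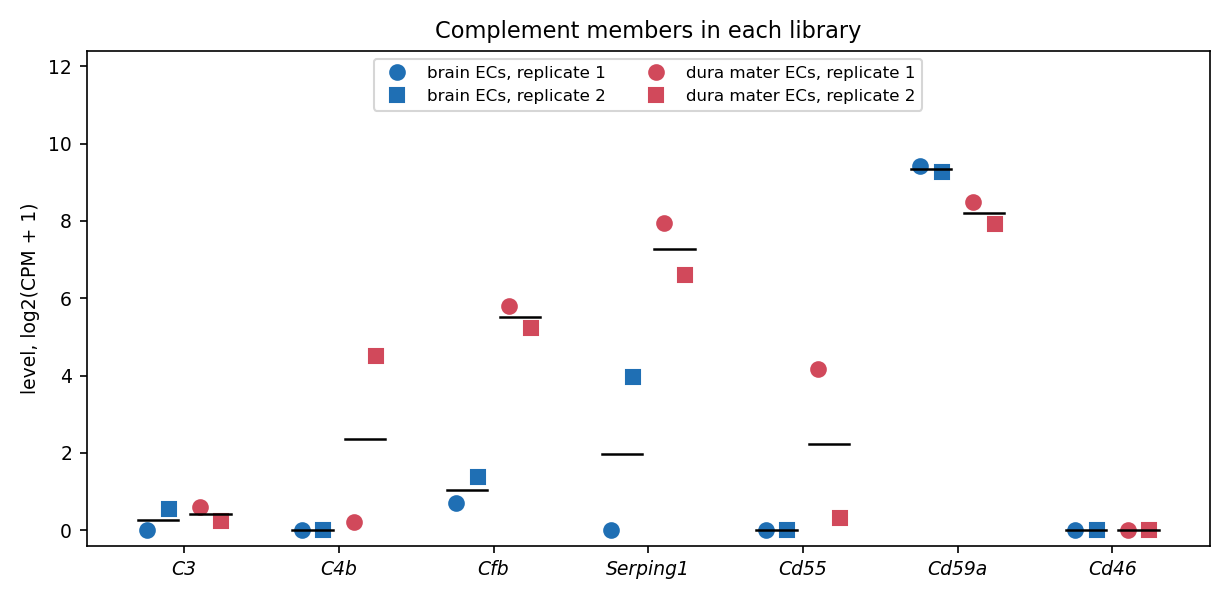
Level of each complement member as log2(CPM + 1) in the 2 brain EC libraries (blue) and the 2 dura mater EC libraries (red), with circles for replicate 1, squares for replicate 2 and black bars for the group mean on that scale. Cd59a lies between 242 and 685 CPM in every library, Cfb and Serping1 are higher in both dura mater libraries, C4b and Cd55 each stand in 1 dura mater library, and Cd46 is at 0 throughout.

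Of the regulators, Serping1 was higher in dura mater ECs and Cd59a lower, while Cd55 was counted mainly in 1 library and Cd46 in none, and neither Serping1 nor Cd59a passed the test. Serping1 (chromosome 2, 84765387 to 84775444, minus strand) encodes C1 inhibitor, which blocks C1r, C1s and the kallikrein that releases bradykinin. It had 0 and 193 counts in the brain against 3318 and 1564 in the dura mater, or 0 and 14.6 CPM against 247 and 95.8 CPM. The lowest dura mater library was above the highest brain library, as for 26.2% of all genes tested. The brain libraries disagreed on whether the gene was present. The mean was 7.29 ± 10.3 CPM for the brain against 172 ± 107 CPM for the dura mater (SD, n = 2). Its log2 fold change of 4.53 (SE 2.26) did not pass the edgeR test (adjusted p 0.538). It was 10.31 without brain replicate 2 and 3.54 without brain replicate 1. Serping1 passed with edgeR's newer dispersion estimate (adjusted p 0.0169, with 3.26% of all genes called) and without a filter on low counts (adjusted p 0.0143, with 2.39% called).

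Cd59a (chromosome 2, 104095801 to 104115354, plus strand) encodes the lipid-anchored protein that stops assembly of the membrane attack complex. It was the one member with at least 64 counts in all 4 libraries, with 9926 and 8117 in the brain against 4824 and 3957 in the dura mater. In CPM these were 685 and 614 against 360 and 242, so both dura mater libraries were below both brain libraries. The mean was 649 ± 50.4 CPM for the brain against 301 ± 83.0 CPM for the dura mater (SD, n = 2), that is 2.16-fold lower in the dura mater. The log2 fold change was −1.11 (SE 0.39), with an unadjusted p of 0.0279 and an adjusted p of 0.466 in edgeR's quasi-likelihood test. An unadjusted p under 0.05 with a lower level in the dura mater was found for 2.97% of all genes tested, and both dura mater libraries were below both brain libraries for 16.9%. Cd59b, whose product has the same role, had 0 counts in every library.

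Cd55 (chromosome 1, 130439027 to 130462744, minus strand), or decay accelerating factor, which takes convertases apart, had 0 and 0 counts in the brain against 227 and 4 in the dura mater. At 16.9 CPM in dura mater replicate 1 and 0.245 CPM in replicate 2, its presence rested on replicate 1. The dura mater mean was 39.6 times the limit of 3 counts per brain library. Cd55b, its neighbour 16.02 kb away on the same strand, had 0 and 0 counts in the brain against 255 and 11 in the dura mater, and so stood in the same library. Exons of the antisense gene Gm16083 overlap 2.10% of the exon length of Cd55, and no source says whether counts were strand-specific. Cd46 (chromosome 1, 195036826 to 195092249, minus strand), a cofactor for the cleavage of C3b and C4b, had 0 counts in all libraries. Exons of A330023F24Rik, on the opposite strand, overlap 14.2% of the exon length of Cd46. A330023F24Rik had 0 and 0 counts in the brain against 322 and 194 in the dura mater. A count of 0 allows up to 0.186 to 0.222 CPM of the unscaled totals (3 counts per library), from counting error only.

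None of the 3 members that passed the filter on low counts was called by edgeR, where 0.610% of 9347 genes were called, and 1 (Cd59a) had an unadjusted p under 0.05. DESeq2 called 0 of the 3 (8.63% of all genes), with 3 at an unadjusted p under 0.05, and limma-voom called 0 (0.856%), with 2. edgeR with the replicate number as a block called 0 of the 3 (2.40%), with 2 at an unadjusted p under 0.05. With at least 10 counts in every library Cd59a alone was tested and was not called (2.95%). These percentages are shares of genes called. Of all 9347 genes, 936 had an unadjusted p under 0.05 in edgeR, 1512 in DESeq2, 1412 in limma-voom and 729 with the block. Cfb and Serping1 passed the filter through their dura mater counts, so a higher level there is in part what the filter required. C3, C4b, Cd55 and Cd46 were not tested. In bulk libraries, fewer cells that express a gene cannot be told apart from less RNA per cell. With 2 libraries a group, a permutation of libraries cannot give a two-sided p under 0.333.

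**Figure D2:**
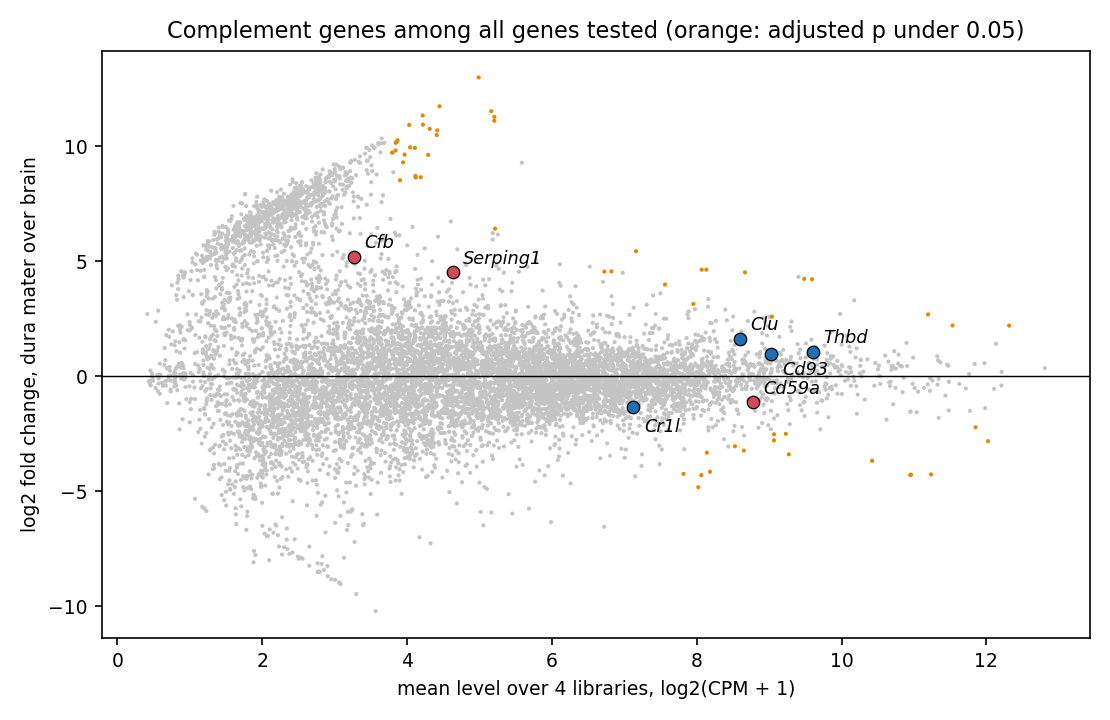
Log2 fold change of dura mater over brain ECs against the mean level over 4 libraries as log2(CPM + 1), for the 9347 genes tested, with orange points for the 57 genes called by edgeR. Members (red) and regulators or receptors of the same system (blue) are all outside the called genes, with Cfb at 5.20 and Serping1 at 4.53.

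The other complement genes of a list of 51 were read in the same fit. Of these, 21 had 0 counts in every library, 12 more stayed under 64 counts in each, and 18 reached 64 counts in at least 1 library. Of the 12 that were tested, 8 had a log2 fold change above 0 and 4 below, with a median of 1.11 against −0.01 over all genes tested. C1ra, C1s1 and Colec12 were among the 12 through their dura mater counts, so this tally and median in part reflect the filter. edgeR called 0 of the 12, with 5 at an unadjusted p under 0.05, all higher in dura mater ECs (7.04% of all genes tested). DESeq2 called 3 (8.63% of all genes), Clu and C1ra among them, and limma-voom called 1 (0.856%).

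Clusterin (Clu), which binds the terminal complex in the fluid phase, was at 213 and 229 CPM for the brain against 856 and 526 CPM for the dura mater. Its log2 fold change was 1.64 (SE 0.41, adjusted p 0.258 in edgeR), and it passed in DESeq2 (adjusted p 0.0391). Vitronectin (Vtn), of the same function, had 234 and 0 counts against 420 and 77, and the groups overlapped. Factor I (Cfi), the protease that cleaves C3b and C4b, was at 0 counts in every library.

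Among membrane regulators, Cr1l had lower values in dura mater ECs, as Cd59a did, and neither passed the test. It was at 234 and 209 CPM for the brain against 72.8 and 104 CPM for the dura mater, with a log2 fold change of −1.33 (SE 0.57, adjusted p 0.466 in edgeR). Both dura mater libraries were below both brain libraries for either gene, as for 16.9% of all genes tested. The ratio of Cd59a to Cr1l counts within a library, which no scaling can alter, was 2.92 and 2.94 in the brain against 4.94 and 2.34 in the dura mater, so the dura mater values lay on either side of the brain ones. Thrombomodulin (Thbd), a membrane protein that also speeds the inactivation of C3b, had values in the opposite direction, at 1075 and 1181 CPM for the dura mater against 532 and 539 CPM for the brain (1.07 on the log2 scale with an SE of 0.31, adjusted p 0.339 in edgeR). Susd4 and Csmd1 to Csmd3 had 0 counts.

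The C1 proteases, the targets of C1 inhibitor, differed among themselves. Both dura mater libraries were above both brain libraries for C1ra and C1s1, as for 26.2% of all genes tested. The groups overlapped for C1rb and C1s2. C1ra had 2 and 2 counts in the brain against 280 and 735 in the dura mater (adjusted p 0.466 in edgeR and 0.0224 in DESeq2). C1s1 had 0 and 93 against 716 and 662 (adjusted p 0.897 in edgeR). C1rb was counted in dura mater replicate 2 alone, with 348. C1s2 had 0 and 109 counts against 20 and 29. The pairs share sequence near the 3′ end (19.1% of 50-base words of C1ra with C1rb and 18.0% of those of C1s1 with C1s2), and Gm16567 runs antisense to C1s1 over 18.4% of its exon bases, so single values are uncertain. Colec12, a scavenger receptor with a collectin head, had 0 and 0 counts in the brain against 115 and 322 in the dura mater. Its dura mater mean was 65.2 times the limit of 3 counts per brain library (adjusted p 0.466 in edgeR). As for Cfb and Serping1, C1ra, C1s1 and Colec12 passed the low-count filter through their dura mater counts.

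Cd93 was the one listed receptor that was tested, and no terminal component was. Cd93, a surface protein first described as a C1q receptor, was at 383 and 364 CPM for the brain against 811 and 657 CPM for the dura mater (0.97 on the log2 scale with an SE of 0.35, adjusted p 0.466 in edgeR). C5ar2 had 102 counts in dura mater replicate 2 and 0 to 2 in the others, and Itgam had 87 in dura mater replicate 1 and 0 to 2 in the others. The annotated gene Gm49368 covers 68.7% of the exon length of Itgam on the same strand. Of the 7 terminal genes, 5 were at 0 throughout, C6 had 192 counts in dura mater replicate 1 alone, and C9 had 1 count. C5ar1 had 0 counts and C3ar1 0 to 7.

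**Figure D3:**
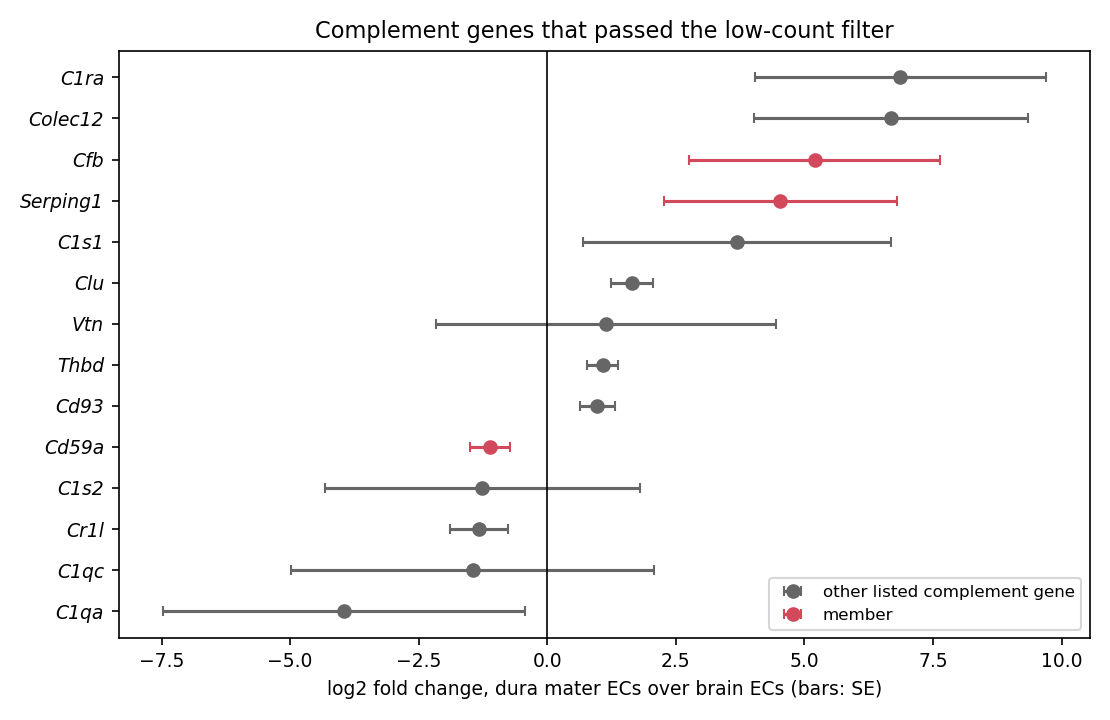
Log2 fold change of dura mater over brain ECs with its SE for 14 of the complement genes that passed the low-count filter, members in red and other listed genes in grey. Clu, Thbd, Cd93, Cd59a and Cr1l have SEs of 0.31 to 0.57, whereas C1qa and Vtn have SEs of 3.52 and 3.31.

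Summed levels of several lists of marker genes of other cell types, and of genes induced by dissociation, also differed between the tissues. The groups overlapped for the full leukocyte, mural, and arachnoid and dural border lists. The 12 fibroblast markers summed to 2565 and 2270 CPM for the brain against 11384 and 11320 CPM for the dura mater, and to 32.98 and 51.6 against 423 and 390 CPM without Mgp, the most counted. In that list Pdgfra had 0 or 1 count and Lum 0 to 4 in each library, while Dcn had 16 and 15 counts against 1184 and 1664, Col1a1 20 and 42 against 759 and 1237, Col1a2 4 and 31 against 1135 and 1913, and Igf1 5 and 5 against 714 and 386. The 15 dissociation response genes summed to 9416 and 8604 CPM for the brain against 32363 and 36101 CPM for the dura mater. The 6 astrocyte markers summed to 51.6 and 7.94 against 418 and 161 CPM, with Aqp4 at 0, and to 0.345 and 0.151 against 147 and 9.86 CPM without Gja1, which other cell types also express. The 10 macrophage and microglia markers summed to 1.31 and 50.5 against 133 and 147 CPM, with P2ry12 at 0. Without Lyve1, which lymphatic endothelium also expresses, they summed to 1.31 and 50.5 against 65.5 and 38.4 CPM, and the groups overlapped. Csf1r made up 48.8 of the 50.5 CPM in brain replicate 2, while Cd68 had 4 and 3 counts in the brain against 550 and 441. Lymphatic endothelial markers summed to 123 and 145 against 433 and 614 CPM, and to 0.207 and 0.529 against 255 and 368 CPM without Flt4. The part of these in the levels of Cfb, Serping1, C4b, Cd55, C1ra, C1s1, Colec12, Clu, Thbd and Cd93 was not tested. Erythroid genes summed to 18013 and 25692 CPM in brain ECs against 1496 and 762 CPM, in the same direction as Cd59a and Cr1l, and their part in those levels was not tested. Leukocyte markers summed to 0.966 and 3.33 against 9.25 and 2.21 CPM, with Cd3e at 0. Mural markers summed to 621 and 1045 against 1126 and 595 CPM, and to 277 and 240 against 561 and 370 CPM without Acta2. Arachnoid and dural border markers summed to 149 and 116 against 140 and 172 CPM. Without Alpl, these border markers summed to 1.31 and 11.2 against 48.0 and 36.8 CPM. The part of mural and border cells in the levels of the complement genes was not tested either.

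Over the 4 libraries, the genes whose levels were nearest to those of Cd59a, by Euclidean distance of log2(CPM + 1), were Mtus1 (distance 0.40), Tspan13 (0.42), Pls3 (0.47), Adgre5 (0.52) and Sox17 (0.60). Mtus1, for instance, was at 835 and 685 CPM for the brain against 313 and 222 CPM for the dura mater.

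**Figure D4:**
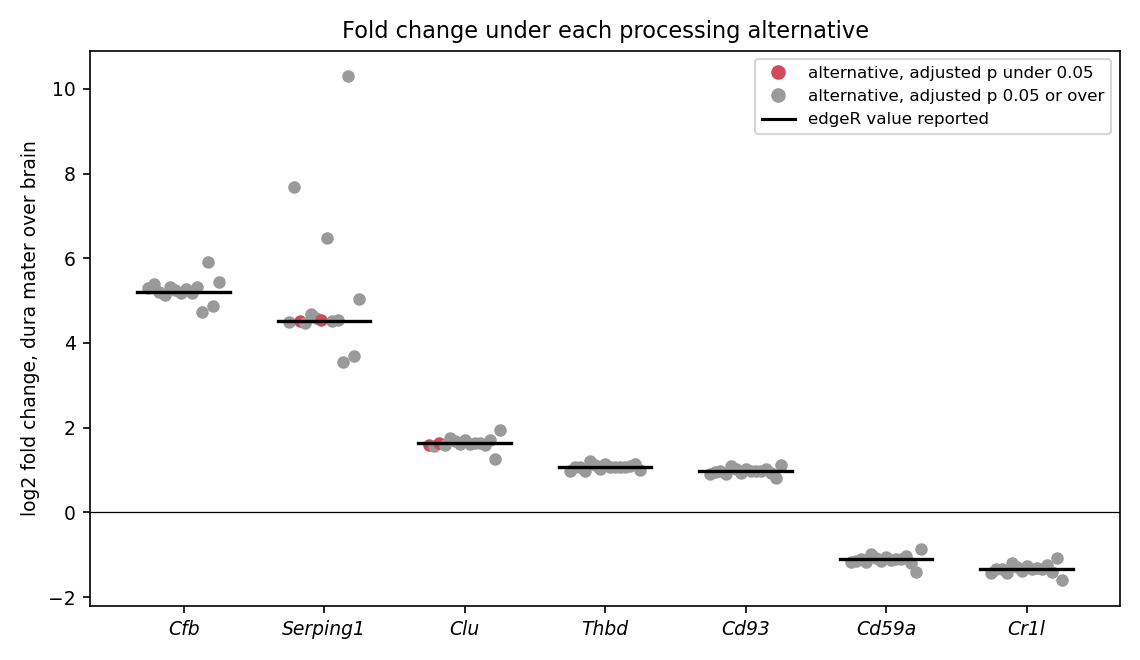
Log2 fold change of dura mater over brain ECs for 7 complement genes under each processing alternative (points, red where the adjusted p was under 0.05) and as reported (black bars). Serping1 ranges from 3.54 to 10.31 and Cd59a from −1.41 to −0.86, and the points of each gene stay on one side of 0.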

How the data were processed

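For every library the authors deposited raw counts, as whole numbers on 23282 lines named by gene symbol. The libraries were made with a QuantSeq 3′ kit. The paper's methods name TopHat and cufflinks, while the submitters' processing notes list Bowtie2, edgeR and the build mm10. The counting step, annotation and use of strand or molecular identifiers are not given in the sources used here. Groups and replicate numbers came from sample titles.

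Dura mater ECs were compared with brain ECs by the quasi-likelihood test of edgeR 4.0.16 (R 4.3.3) with trimmed-mean (TMM) scaling, a filterByExpr filter and no term besides tissue, with p-values adjusted after Benjamini-Hochberg over 9347 genes. Calls used an adjusted p under 0.05. For log2 fold changes the prior count was 2. Their standard error (SE) was taken as their size over the square root of F. DESeq2 1.42.0 and limma 3.58.1 (voom) were alternatives, with others for dispersion, scaling, filter, depth, threshold, prior count, replicate block and each library left out. Scripts were tested on simulated data. Gene positions and transcripts were those of GENCODE M21. Named genes were all members, listed complement genes with an adjusted p under 0.05 or at least 64 counts in a library, C4a, Cd55b, Cd59b and Cr1l, marker genes that were most counted or at 0, and the 5 genes nearest to the member with the highest mean. Other genes are named after their values were seen. The members and lists were chosen with earlier results of these data known. Results for 2 listed genes are not reported here.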

Additional observations from a re-analysis of the deposited data

How the results depend on the processing

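The 57 genes called by edgeR (40 higher in dura mater, 17 lower) became 807 in DESeq2, 305 with the newer dispersion estimate, 326 without a filter, 141 with at least 10 counts in every library, 224 with the replicate block and 1 at an adjusted p under 0.01. The share of higher genes was 70.2% in edgeR, 53.2% with at least 10 counts and 50% in limma-voom. It was 44.4% without dura mater replicate 2 (24 higher, 30 lower) and 100% of 5 genes without brain replicate 2. Leaving out 1 library gave 0 to 54 calls, 0 without brain replicate 1 and 5 without brain replicate 2. A lone library was then assumed to vary like the other group. Of the members, 1 (Serping1) was called with the newer dispersion estimate and 1 without a filter, and 0 in the other settings, where the range without 1 library was 0 to 0. Of the other complement genes, 3 were called in DESeq2 (8.63% of all genes) and 2 with the newer estimate (3.26%). There was 1 call each in limma-voom (0.856%), without a filter (2.39%), with at least 10 counts (2.95%) and with the replicate block (2.40%). Upper-quartile factors moved the median log2 fold change of all genes from −0.01 to 0.13, and no scaling turned the sign of Cfb, Serping1, Cd59a, Clu, Cr1l, Thbd or Cd93.

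Of 15 complement genes, 4 changed sign somewhere, and the cause was not tested. Without 1 library, C1qa ran from −5.69 to 2.19, C1qc from −6.87 to 6.35, C1s2 from −2.24 to 3.71 and Vtn from −0.75 to 7.02 on the log2 scale. In limma-voom C1qc was 0.34 and C1s2 1.63, and with the replicate block C1s2 was 0.65. Same-numbered libraries showed no shared deviation from their group means (r = −0.0153 over genes, which are not independent). No source says whether same-numbered libraries shared mice. This correlation cannot decide it, because replicates varied widely. Among complement genes the block changed 1 call, of a gene that is no member. A single count was worth 0.0613 to 0.0756 CPM, and the common coefficient of variation between replicates was 1.39.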

Other observations

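C1qa, C1qb and C1qc encode the 3 chains that build C1q, and are known as genes of microglia and macrophages. C1qa and C1qb were counted mainly in the same brain library, and C1qc in other libraries. Brain replicate 1 had 436, 289 and 0 counts of C1qa, C1qb and C1qc, and brain replicate 2 had 1, 4 and 797. Dura mater replicate 1 had 2, 2 and 291 counts, and dura mater replicate 2 had 25, 0 and 2. The myeloid receptor gene Csf1r had 4 and 646 counts in the brain against 28 and 9 in the dura mater, which is named after its values were seen. In brain replicate 2, Cx3cr1, Tyrobp, Adgre1 and Cd68 of the same marker list had 2, 9, 5 and 3 counts. Aif1, Mrc1 and Tmem119 had 1 each there, and Lyve1 and P2ry12 had 0. Of the complement genes with at least 64 counts in a brain library, 7 of 13 had 7 or fewer in the other. For the dura mater this was 7 of 20. Over all symbols the shares were 31.3% for the brain and 30.7% for the dura mater.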
